A study of Bos taurus with 12 samples.

Results

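The matrix metalloproteinases (MMPs) and their tissue inhibitors (TIMPs) were examined in the endometrium of Simmental heifers. The members were all probe sets of an Affymetrix bovine expression array whose platform annotation gave 1 of 10 symbols: the proteases MMP1, MMP2, MMP3, MMP9, MMP13, MMP14 and MMP20 and the inhibitors TIMP1, TIMP2 and TIMP3. This gave 18 of 24016 probe sets, 12 for proteases and 6 for inhibitors. Tissue had been collected on day 7 or day 3 of the estrous cycle, and endometrium was called receptive or non-receptive by pregnancy outcome after transfer of embryos produced in vivo. The design had 4 groups: receptive endometrium of day 7, non-receptive of day 7, receptive of day 3, and non-receptive of day 3. Each held 3 RNA pools, with 1 array per pool. No other treatment was named for any group. The labels do not say how many heifers make up a pool or whether pools of a group share animals. They also do not say whether the same heifers gave tissue on both days. The p-values thus measure the spread between pools, which may be technical, and the main tests treat the days as unpaired.

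MMPs are zinc-dependent enzymes that cut proteins of the extracellular matrix. Most are made as inactive precursors and secreted, and TIMPs block them by binding the active site. In the endometrium they take part in the remodelling of the stroma over the cycle, and several of them are also made or carried by macrophages and neutrophils. Signals are on the log2 scale, so that a difference of 1 unit is a doubling, and the table has a floor at 0. Of the 216 member values 13 lay at this floor, spread over 5 of the 18 probe sets, and a value at the floor is a bound, not a level. Levels of different probe sets are not comparable with each other, because probes differ in their response. Where a gene has several probe sets, they are told apart by the ending of their name (A1_at, S1_at, S1_a_at or S1_s_at), or by their mean signal.

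Array medians lay between 6.64 and 6.76, and 257 to 450 probe sets per array were at 0. Epithelial markers were present in all pools (summed log2 signal of 7 genes between 14.5 and 14.9), and none of the 5 measured endometrial identity genes was at 0 in any pool. As few probe sets were at 0, this says little about their expression. EMX2 had mean signals of 9.635 on day 7 and 9.817 on day 3, while the day means of the other identity genes lay between 3.43 and 5.44.

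On day 7 the transcripts of the secreted proteases MMP9 and MMP13 were more abundant than on day 3, and those of the inhibitor TIMP1 were slightly more abundant. The membrane-anchored protease MMP14 was less abundant on 1 of its 3 probe sets. Averaged over receptivity, 5 of 18 member probe sets passed the test (limma, Benjamini-Hochberg adjusted p under 0.05 over all 24016), against 14.2% of all probe sets. Of these, 4 were higher on day 7 (4.76% of all probe sets were) and 1 was lower (9.44% of all were). The members were chosen with earlier results of these data known, and the 4 include more than 1 probe set of MMP13. These shares are therefore a description. The 6 pools of day 7 and the 6 pools of day 3 did not overlap for 3 member probe sets, against 7.72% of all. No member differed between receptive and non-receptive endometrium after adjustment.

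**Figure D1:**
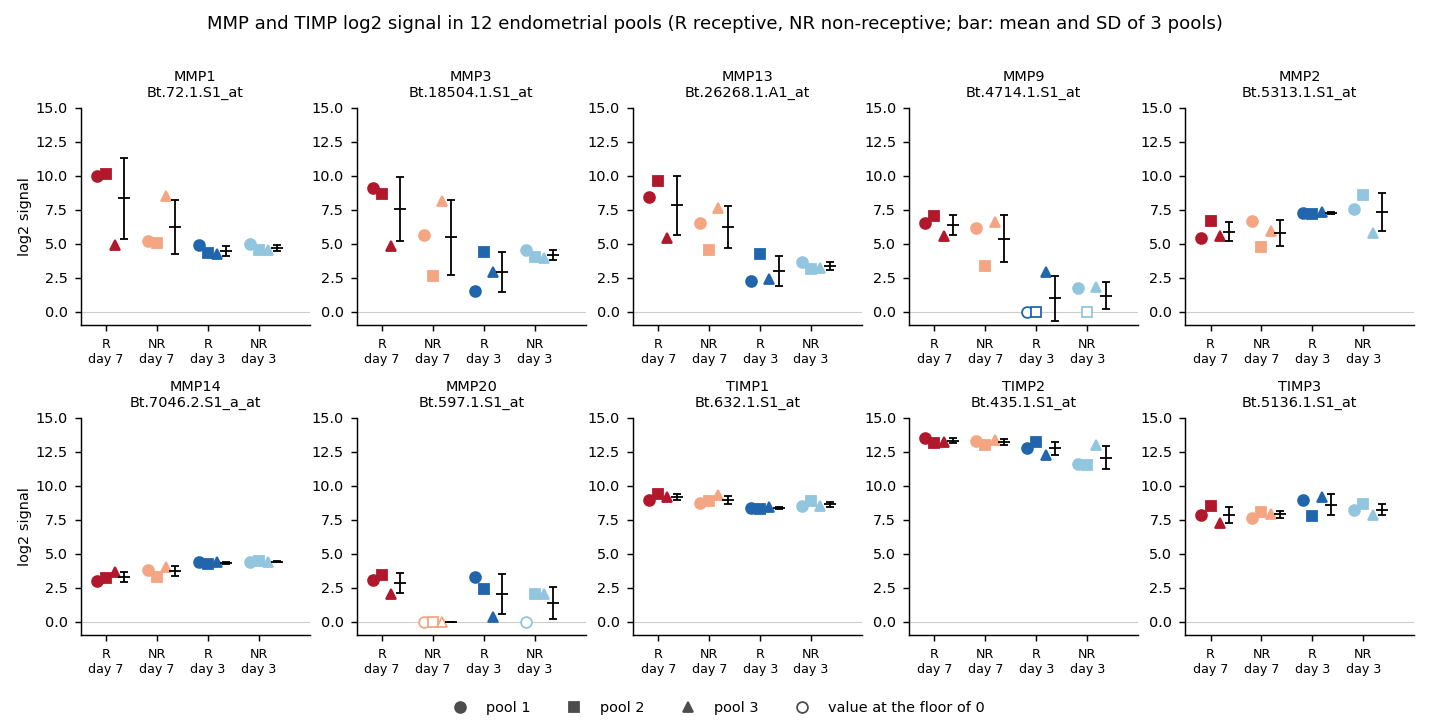
Log2 signal (y axis) of 7 MMPs and 3 TIMPs in 12 endometrial pools by receptivity and day (x axis; R receptive, NR non-receptive), with 1 symbol per pool, open symbols for values at the floor of 0 and a bar for the mean and SD of 3 pools; for genes with several probe sets, that with the smallest p in the averaged day comparison is drawn. MMP9 and MMP13 are higher in all 6 pools of day 7 than in any pool of day 3, whereas MMP1 and MMP3 are spread widely on day 7.

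MMP9, or gelatinase B, cuts denatured collagen and basement membrane collagen and is stored in neutrophil granules. Its single probe set had log2 signals of 6.49, 7.00 and 5.58 in receptive and of 6.15, 3.35 and 6.56 in non-receptive pools of day 7, against 0, 0 and 2.90 in receptive and 1.73, 0 and 1.77 in non-receptive pools of day 3. All pools of day 7 were above all pools of day 3, with pool 2 of non-receptive day 7 nearest to them. The averaged day difference was 4.79 (SE 0.71, limma adjusted p = 0.00426). Because 3 of the day 3 values were at the floor, this difference has no fixed size. With all values under 4 set to 4 it was 1.96 and still passed. It was 5.39 in receptive (adjusted p = 0.036) and 4.19 in non-receptive endometrium (adjusted p = 0.0586), and these day changes did not differ detectably (difference 1.20, SE 1.42, adjusted p = 0.999).

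MMP13, collagenase-3, cleaves the triple helix of fibrillar collagens. Its stronger probe set, ending in A1_at, had log2 signals of 8.39, 9.60 and 5.42 in receptive and of 6.50, 4.56 and 7.62 in non-receptive pools of day 7, against 2.24, 4.23 and 2.42 in receptive and 3.67, 3.09 and 3.22 in non-receptive pools of day 3. Here too the days did not overlap, although pool 2 of non-receptive day 7 lay only just above pool 2 of receptive day 3. The averaged day difference was 3.87 (SE 0.75, 95% interval 2.19 to 5.55, adjusted p = 0.0109), with no value at the floor, and it passed under every alternative processing tried. The other MMP13 probe set, ending in S1_at, gave 5.56, 6.81 and 3.73 in receptive and 3.96, 0.35 and 4.84 in non-receptive pools of day 7, against 3.26, 2.83 and 1.81 in receptive and 0.92, 0 and 0 in non-receptive pools of day 3. It was lower in signal and overlapped between days. Its difference of 2.74 (SE 0.78) passed narrowly (adjusted p = 0.0433) and missed the threshold under 13 of 20 alternatives (highest adjusted p = 0.192), among them the omission of any 1 of 10 pools, all except receptive day 7 pool 3 and non-receptive day 7 pool 2.

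MMP1 (interstitial collagenase) and MMP3 (stromelysin-1, which can activate other MMP precursors) had large but uneven day differences. In the RefSeq annotation of the cattle assembly ARS-UCD2.0 they lie in 1 gene cluster with MMP13 and MMP20, in the order MMP13, MMP12, MMP3, MMP1, MMP8, MMP27, MMP20, MMP7. MMP1 had log2 signals of 9.99, 10.10 and 4.86 in receptive and of 5.15, 5.02 and 8.48 in non-receptive pools of day 7. On day 3 it had 4.88, 4.28 and 4.24 in receptive and 4.93, 4.55 and 4.52 in non-receptive pools. It was thus high in 3 pools of day 7, receptive pools 1 and 2 and non-receptive pool 3, while the other 3 lay between 4.86 and 5.15, close to the values of day 3. The SD over 6 pools was 2.54 on day 7 and 0.29 on day 3. The averaged difference of 2.70 (SE 0.94) did not pass (adjusted p = 0.0832), and the exact permutation of day within receptivity groups gave p = 0.01 for this gene alone (two-sided, 400 assignments, smallest possible p 0.005). Without receptive day 7 pool 3 the difference was 3.56 (adjusted p = 0.0113). Under 19 of 22 alternatives the MMP1 difference did not pass, with a lowest difference of 2.13 and a highest adjusted p of 0.16. The permutation, whose p is not adjusted, was counted among the alternatives that passed.

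The strongest MMP3 probe set, S1_at, was high in the same 3 pools. Log2 signals were 9.10, 8.67 and 4.81 in receptive and 5.62, 2.61 and 8.11 in non-receptive pools of day 7, against 1.48, 4.40 and 2.88 in receptive and 4.56, 4.01 and 3.92 in non-receptive pools of day 3. Pool 2 of non-receptive day 7 lay below 5 of the 6 pools of day 3. The averaged difference was 2.95 (SE 1.02, adjusted p = 0.083; exact permutation p = 0.05). It was 3.62 (adjusted p = 0.0385) without receptive day 7 pool 3 and 3.65 (adjusted p = 0.0289) without non-receptive day 7 pool 2. Under 19 of 22 alternatives it did not pass (lowest difference 2.28, highest adjusted p = 0.189). The other MMP3 probe sets were less clear. That ending in S1_a_at differed by 1.94 (SE 1.07, adjusted p = 0.256, 3 values at 0) and that ending in A1_at by 0.51 (SE 0.39, adjusted p = 0.41).

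**Figure D2:**
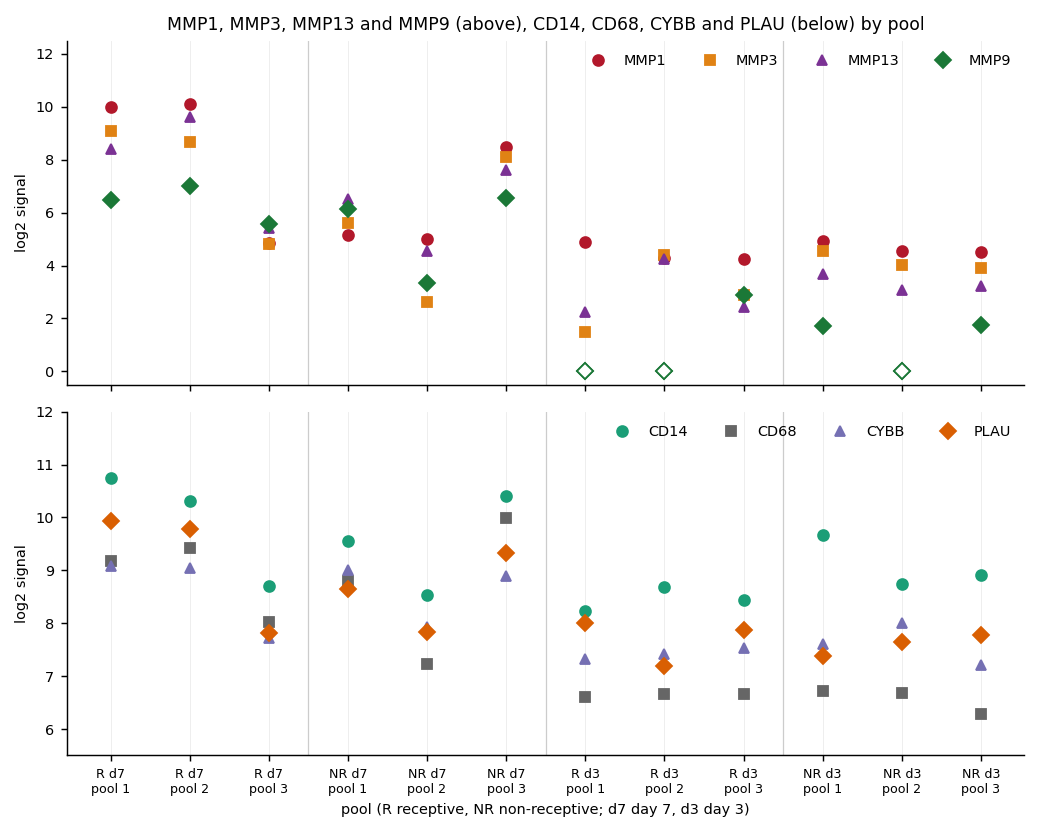
Log2 signal (y axis) of MMP1, MMP3, MMP13 and MMP9 (upper panel) and of CD14 (its stronger probe set, A1_at), CD68, CYBB and PLAU (lower panel) in each of the 12 pools (x axis), with open diamonds for MMP9 values at the floor of 0. Receptive pools 1 and 2 and non-receptive pool 3 of day 7 have the highest values of MMP1, MMP3, MMP13 and PLAU, with MMP1 between 8.48 and 10.10 in these pools.

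The remaining proteases had smaller or opposite differences. MMP2, or gelatinase A, a constitutive product of stromal cells, had log2 signals of 5.40, 6.68 and 5.56 in receptive and of 6.65, 4.74 and 5.93 in non-receptive pools of day 7, against 7.28, 7.19 and 7.29 in receptive and 7.55, 8.56 and 5.80 in non-receptive pools of day 3. In receptive endometrium the days did not overlap, while in non-receptive endometrium pool 3 of day 3 was as low as the pools of day 7. The averaged difference of -1.45 (SE 0.48) did not pass (adjusted p = 0.0714). Without non-receptive day 3 pool 3 it was -1.83 (adjusted p = 0.0177). Under 19 of 22 alternatives it did not pass (weakest difference -1.14, highest adjusted p = 0.142). Exact permutation, counted among those that passed, gave an unadjusted p of 0.03.

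MMP14 is anchored in the cell membrane and activates the MMP2 precursor together with TIMP2. Its probe set ending in S1_a_at had log2 signals of 3.01, 3.19 and 3.69 in receptive and 3.82, 3.32 and 4.01 in non-receptive pools of day 7, against 4.38, 4.22 and 4.37 in receptive and 4.39, 4.49 and 4.38 in non-receptive pools of day 3. The days did not overlap, and the pools of day 3 were tightly grouped (SD 0.087, n = 6). The averaged difference was -0.86 (SE 0.14, adjusted p = 0.00613), passed under each of 21 alternatives that kept it, and was -1.03 in receptive endometrium alone (adjusted p = 0.0403). The signals were low, at the 14.2 percentile of probe set means. The probe sets ending in S1_at (-0.63, SE 0.24, adjusted p = 0.104) and A1_at (-0.30, SE 0.58, adjusted p = 0.765) did not pass, and the sign of the last one changed with the processing.

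MMP20, enamelysin, is known from tooth enamel. Its signal was at the 1.69 percentile of probe set means, with 3.05, 3.47 and 2.03 in receptive pools of day 7 and 0 in each non-receptive pool of that day, against 3.26, 2.41 and 0.38 in receptive and 0, 2.04 and 2.01 in non-receptive pools of day 3. No day difference was detectable at this level (-0.26, SE 0.53, adjusted p = 0.786).

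The day differences of the 6 inhibitor probe sets lay between -0.55 and 0.86. TIMP1, a secreted inhibitor of most MMPs, had on its S1_at probe set log2 signals of 8.95, 9.40 and 9.14 in receptive and of 8.73, 8.90 and 9.31 in non-receptive pools of day 7, against 8.35, 8.27 and 8.47 in receptive and 8.53, 8.86 and 8.50 in non-receptive pools of day 3. Only pool 2 of non-receptive day 3 reached into the range of day 7. The difference of 0.57 (SE 0.13, adjusted p = 0.0168) passed under every alternative tried. Its S1_s_at probe set differed by 0.38, short of the threshold (SE 0.13, adjusted p = 0.0817).

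TIMP2, which inhibits MMP2 and also helps MMP14 to activate it, had its strongest probe set at the 99.5 percentile of probe set means. It gave 13.53, 13.17 and 13.22 in receptive and 13.28, 12.99 and 13.37 in non-receptive pools of day 7, against 12.77, 13.23 and 12.26 in receptive and 11.57, 11.56 and 13.02 in non-receptive pools of day 3. Values of day 7 were close together and those of day 3 reached lower. The difference of 0.86 (SE 0.27) did not pass (adjusted p = 0.0596), and without non-receptive day 3 pool 3, the high value of its group, it was 1.10 (adjusted p = 0.0069). Under 17 of 22 alternatives it did not pass (lowest difference 0.735, highest adjusted p = 0.132). Exact permutation, counted among those that passed, gave an unadjusted p of 0.03. The other TIMP2 probe sets differed by 0.23 (SE 0.19) and 0.12 (SE 0.16).

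TIMP3, which is bound to the matrix, ranged from 7.29 to 8.48 on day 7 (median of 6 pools 7.88) and from 7.74 to 9.15 on day 3 (median 8.42). Its difference of -0.55 (SE 0.28, adjusted p = 0.227) did not pass and had the opposite sign to TIMP1.

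To set proteases against inhibitors within a pool, each gene's log2 signal was centred on its mean over the 12 pools (1 probe set per gene, that with the highest mean signal) and averaged over the 7 proteases and the 3 inhibitors. The centring makes values above and below the average offset each other over the 12 pools. The sign of a difference therefore does not say which transcripts were more abundant. On day 7 the centred protease mean exceeded the centred inhibitor mean by 2.01, 2.13 and 0.0694 in receptive pools 1, 2 and 3. In non-receptive pools of day 7 the excess was 0.353 in pool 1, -1.18 in pool 2 and 1.06 in pool 3. All 6 pools of day 3 were negative, between -1.20 and -0.68 in receptive and between -0.79 and -0.30 in non-receptive endometrium. The inhibitor mean itself stayed within -0.082 to 0.40 on day 7 and -0.42 to 0.075 on day 3. The centred difference on day 7 thus varied more between pools of a group than the inhibitors did, and it overlapped with day 3 through non-receptive pool 2. The protease mean holds 3 MMP9 values at the floor, all on day 3. It also holds 4 of MMP20, 3 of them in the non-receptive pools of day 7, so its level has no fixed size. As it contains the MMP9 and MMP13 changes given above, it is not a separate result.

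**Figure D3:**
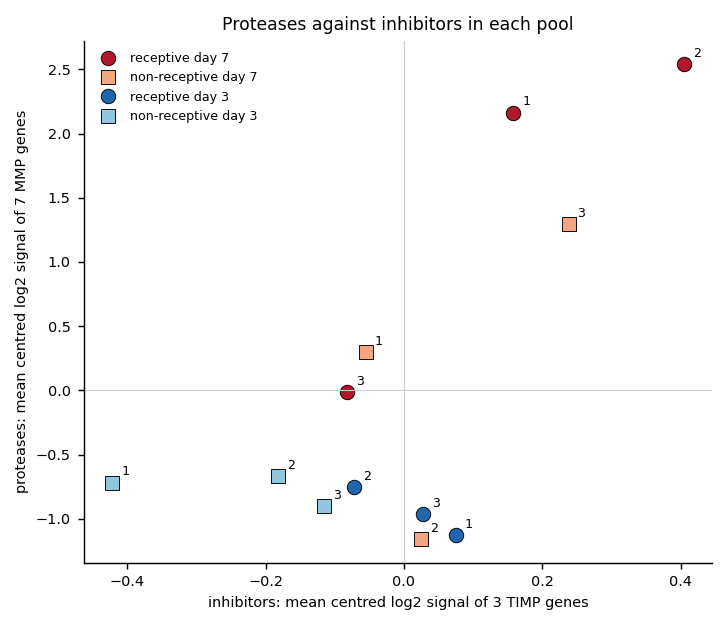
Mean centred log2 signal of 7 MMP genes (y axis) against that of 3 TIMP genes (x axis) in each pool, coloured by group and numbered by pool. Receptive day 7 pools 1 and 2 and non-receptive day 7 pool 3 have the highest protease means (2.16, 2.54 and 1.30), whereas non-receptive day 7 pool 2 (-1.16) lies with the pools of day 3.

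Within receptive endometrium, 2 of 18 member probe sets passed between day 7 and day 3, those of MMP9 and MMP14 named above, against 1.96% of all probe sets. Both calls were lost (0 members) with the gap between 3-prime and 5-prime actin controls as a covariate, with only the compared groups in the fit, with the pool number as a block, and without any 1 of 7 pools: receptive day 7 pools 1 and 2, non-receptive day 7 pool 1, receptive day 3 pools 1, 2 and 3 and non-receptive day 3 pool 1. The receptive pools of day 7 and day 3 did not overlap for 9 members, against 25.2% of all probe sets. Within non-receptive endometrium 0 members passed in limma (2.48% of all did), 6 had an unadjusted p under 0.05 (20.5% of all did), and 5 did not overlap (25.9% of all). MMP1 differed by 3.85 in receptive (SE 1.33) and by 1.55 in non-receptive endometrium (SE 1.33), and MMP3 by 4.61 (SE 1.44) and 1.28 (SE 1.44). None of these day changes was shown to differ between the receptivity groups. In limma's test of the interaction 0 members passed (0% of all) and 0 had an unadjusted p under 0.05 (3.39% of all).

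Receptive and non-receptive endometrium were compared on each day to ask whether protease or inhibitor transcripts went with pregnancy outcome. On day 7, 0 members passed in limma (0% of all probe sets), 1 had an unadjusted p under 0.05 (5.81% of all) and its groups were the only ones not to overlap (9.23% of all). This was MMP20, with 2.03 to 3.47 in receptive pools and a listed 0 in each non-receptive pool, so that no fold is given (unadjusted p = 0.00352, adjusted p = 0.821). MMP1 was higher in receptive than in non-receptive pools by 2.10, with a 95% interval of -0.86 to 5.06, and MMP13 A1_at by 1.58, with an interval of -0.80 to 3.95. Both intervals span 0 and reach several units, so that large differences in these proteases were not detectable with 3 pools a group.

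On day 3, 0 members passed in limma (0.0125% of all probe sets) and 0 had an unadjusted p under 0.05 (5.26% of all). For 2 members the groups did not overlap (10.8% of all): MMP13 S1_at was higher in receptive pools by 2.33 (SE 1.10) and TIMP1 S1_at was lower by 0.27 (SE 0.18), both short of the threshold (adjusted p = 0.936 and 0.943). Averaged over days, 0 members passed in limma (0.00416% of all) and 2 had an unadjusted p under 0.05 (7.38% of all), MMP13 S1_at (2.32, SE 0.78, unadjusted p = 0.0138, adjusted p = 0.647) and MMP20 (unadjusted p = 0.00784, adjusted p = 0.632). MMP13 S1_at has 2 values at the floor and MMP20 has 4, and the other MMP13 probe set did not share the difference on day 3 (-0.36, SE 1.06). The gap between the array's 3-prime and 5-prime actin controls, a sign of RNA length, also differed by receptivity, with 0.82 to 1.25 in receptive and 0.02 to 0.63 in non-receptive pools of day 7 and 1.05 to 3.11 in receptive and 0.48 to 0.93 in non-receptive pools of day 3. In receptive endometrium the actin gap thus also ran higher on day 3 than on day 7, although the days overlapped. The same gap of the GAPD controls overlapped between receptivity groups. It was 0.37 to 0.96 in receptive and 0.62 to 0.72 in non-receptive pools of day 7. On day 3 it was 0.53 to 1.04 in receptive and 0.66 to 0.82 in non-receptive pools. The part of the actin gap in these differences was not tested.

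Because MMP1, MMP3 and MMP13 divided the pools of day 7 in a way that crossed receptivity, the marker lists were read in the same pools. In bulk tissue fewer cells of a type and less RNA per cell cannot be told apart. Of 8 measured macrophage markers 3 were higher on day 7 and none lower, where 4.76% of all probe sets were higher and 9.44% lower. These were FCGR2B, an inhibitory Fc receptor (3.62, SE 0.29), the lysosomal CD68 (2.17, SE 0.42) and CYBB, a subunit of the phagocyte oxidase (1.10, SE 0.28). FCGR2B did not follow MMP1 and MMP3 within day 7: it was 8.51, 9.17 and 8.64 in receptive and 8.60, 9.43 and 8.37 in non-receptive pools, with its highest value in the pool lowest in MMP3. The summed log2 signal of all 8 markers was 11.9, 12.0 and 10.7 in receptive and 11.4, 10.8 and 12.0 in non-receptive pools 1, 2 and 3 of day 7, against 10.2 to 10.3 in receptive and 10.3 to 10.8 in non-receptive pools of day 3. It was thus highest in the 3 pools with high MMP1 and MMP3, and none of the 8 markers was at 0 in any pool.

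Of 7 measured neutrophil markers 3 were higher on day 7, where 4.76% of all probe sets were. These were the calcium-binding S100A12 (3.70, SE 0.54), S100A8 (3.33, SE 0.55) and S100A9 (1.53, SE 0.32). The summed log2 signal of the list was 14.2 to 14.8 in receptive and 14.2 to 14.4 in non-receptive pools of day 7, against 13.9 to 14.0 in receptive and 14.0 in all non-receptive pools of day 3. Most of this sum is LTF, lactoferrin, at 13.75 to 13.96 in every pool (day difference -0.0067). The granule enzymes MPO and ELANE stayed between 2.96 and 4.63 in all pools, and ITGAM was at 0 in 1 pool. The part of either cell type in the MMP differences was not tested.

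Other markers moved with day as well. All 4 measured squamous keratins (KRT5, KRT14, KRT15 and KRT17) were higher on day 7, where 4.76% of all probe sets were. Their summed log2 signal was 8.98 to 11.1 in receptive and 10.9 to 11.5 in non-receptive pools of day 7, against 7.85 to 8.22 in receptive and 8.16 to 8.59 in non-receptive pools of day 3. Receptive day 7 pool 1, with high MMP1, MMP3 and MMP13, had the lowest keratin signal of its day. Lower on day 7 were 3 of 10 T and NK cell markers (GNLY, GZMB and PRF1), 2 of 6 endothelial markers (CDH5 and TEK) and 2 of 5 endometrial identity genes (HOXA10 and ESR1). Of all probe sets 9.44% were lower. Of 4 blood markers HBB was higher on day 7 (0.50, adjusted p = 0.0277) and ALAS2 was lower (-0.41, adjusted p = 0.029). Among 7 simple epithelium markers none passed.

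The genes with the pattern most like a member over the 12 pools were sought among probe sets with 1 symbol and no value at 0, as a description. For MMP13 these were the monocyte receptor CD14 (its S1_at probe set, Pearson r = 0.962, and 0.917 for deviations from the group means), IRF5 (0.961 and 0.87), an interferon regulatory factor, and the monocyte chemokine CCL2 (0.952 and 0.835). For MMP9 they were CCL2 (0.944 and 0.636), CRAT (0.934 and 0.629) and NUDT2 (0.926 and 0.696). For MMP14 they were BRCA1 (0.94 and 0.819), FXR1 (0.93 and 0.864) and PTI (0.929 and 0.602). MMP1 and MMP3 were added after their values had been seen. MMP1 was most like PLAU (0.945 and 0.907), the urokinase plasminogen activator, then AGO2 (0.94 and 0.916) and the same CD14 probe set (0.926 and 0.881). MMP3 was most like that CD14 probe set (0.965 and 0.949), then TCIRG1 (0.952 and 0.978) and COTL1 (0.944 and 0.895). The same arrays, pools and day difference underlie all of these values.

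CD14 has 2 probe sets. That ending in S1_at, the one most like MMP13 and MMP3, had log2 signals of 8.42, 8.20 and 7.23 in receptive and of 7.42, 7.05 and 7.92 in non-receptive pools of day 7, against 6.45, 6.93 and 6.60 in receptive and 7.04, 6.81 and 7.05 in non-receptive pools of day 3 (difference 0.89, SE 0.22, adjusted p = 0.026). The stronger one, ending in A1_at, which stands in the marker list, had 10.75, 10.32 and 8.71 in receptive and of 9.55, 8.53 and 10.40 in non-receptive pools of day 7, against 8.24, 8.68 and 8.43 in receptive and 9.67, 8.74 and 8.91 in non-receptive pools of day 3. Both were highest in the 3 pools with high MMP1. The day difference of the stronger one, 0.93 (SE 0.40, adjusted p = 0.147), did not pass. PLAU, whose product turns plasminogen into plasmin, a known activator of MMP precursors, had 9.93, 9.79 and 7.82 in receptive and 8.64, 7.84 and 9.32 in non-receptive pools of day 7, against 7.20 to 8.01 in all pools of day 3 (difference 1.24, SE 0.39, adjusted p = 0.0592).

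The wider pathway was read from lists (1 probe set per gene), whose medians stand beside a median day difference of -0.05 over all probe sets. Of 16 other MMPs listed, 3 were measured under those symbols (MMP15, MMP16 and MMP19) and none passed. MMP19 ranged from 6.88 to 10.16 on day 7 and from 7.36 to 8.50 on day 3, with its highest value in receptive day 7 pool 2 and its lowest in non-receptive day 7 pool 2. Among 9 measured further inhibitors and activators none passed (median 0.27). Of the disintegrin-type ADAM and ADAMTS proteases 1 of 10 passed, ADAMDEC1, which was lower on day 7 by 1.08 (adjusted p = 0.00865). This share is close to the 9.44% of all probe sets that were lower. None of 8 cathepsins, the lysosomal proteases, passed (median 0.30).

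Of 14 measured genes of matrix proteins that MMPs cut, 5 fell on day 7 and none rose, with a median of -1.42, where 9.44% of all probe sets fell. The genes that fell were the basement membrane genes NID1 (-2.02, SE 0.45), COL4A1 (-1.77, SE 0.39) and LAMA4 (-1.50, SE 0.34) and the collagens COL3A1 (-1.73, SE 0.44) and COL6A1 (-1.62, SE 0.42). Their adjusted p lay between 0.0168 and 0.0321. DCN (-1.71), COL1A2 (-1.50), COL5A2 (-1.335) and VCAN (-0.695) did not pass. FN1, COL1A1, LAMC1, LAMB1 and ELN lay between -0.40 and 0.053 and did not pass either. COL4A1 gave 8.54, 9.09 and 7.75 in receptive and 9.15, 7.69 and 8.86 in non-receptive pools of day 7, against 10.55, 10.24 and 9.95 in receptive and 10.60, 11.16 and 9.19 in non-receptive pools of day 3. Only non-receptive day 3 pool 3, the pool with the lowest MMP2 signal of day 3, came near the range of day 7. The list of 10 stromal fibroblast markers, which shares 4 collagen and proteoglycan genes with the substrates, had 3 lower and none higher. Its summed log2 signal was 11.6 to 12.4 in receptive and 11.8 to 13.0 in non-receptive pools of day 7, against 13.5 to 13.6 in receptive and 12.1 to 14.5 in non-receptive pools of day 3. Its part in the MMP2 and MMP14 values was not tested.

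Of 15 known regulators of MMP transcription, cytokines and factors of the AP-1 and ETS families, 2 passed. Both were lower on day 7, where 9.44% of all probe sets were: JUN by 0.90 (adjusted p = 0.00266) and JUND by 0.45 (adjusted p = 0.0207). The cytokine IL1B stood at 9.42 in receptive day 7 pool 1, against 6.22 to 6.88 in the other pools of day 7 and 5.90 to 6.38 on day 3 (difference 0.73, SE 0.44, adjusted p = 0.303). None of the 15 regulators passed in the direction of MMP9 and MMP13 (median of the list 0.22).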

How the data were processed

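The authors deposited 1 table of log2 signals for 12 arrays, 1 RNA pool each. The tools in the submitters' processing notes are Affymetrix Expression Console, PLIER and GCOS 1.1.1. How arrays were scaled to each other was not given in the labels or notes. The 112 control probe sets were left out, and values were used without further normalization or filter. Genes were named from the platform annotation, checked against RefSeq symbols: 13292 of 24016 probe sets had 1 symbol, 86 several (not named) and 10638 none. With limma 3.58.1 in R 4.3.3, lmFit and eBayes were run on a model of 4 group means. The 7 contrasts were day 7 against day 3 and receptive against non-receptive, each within groups and averaged, and their interaction. Tests were two-sided, with Benjamini-Hochberg adjustment over all tested probe sets and a threshold of 0.05. The fit was tested on simulated data.

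The members and gene lists were chosen with earlier results of these data known. All member probe sets were named, up to 4 genes with the smallest p of each list, and for the 3 members with the smallest p the 3 most similar genes. PLAU, CD14, MMP19 and IL1B were described after their values were seen. Alternatives were quantile normalization, median centring, a floor of 4, filters, trended and robust eBayes, array weights, the pool number as a block, the actin gap as a covariate, fits on the compared groups alone, exact permutation and omission of each pool. The number of arrays limits the precision.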

Additional observations from a re-analysis of the deposited data

How the results depend on the processing

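In the averaged day comparison 5 member probe sets passed, and 4 to 7 did with each pool omitted in turn. Array quality weights gave 10 members there, 6 in receptive and 5 in non-receptive endometrium. The shares of all probe sets called under each alternative are not given here. The counts of member calls therefore show only how these calls moved with the processing. The 2 calls in receptive endometrium became 0 when only the compared groups were fitted and 0 with the actin gap as a covariate, and 0 to 3 with each pool omitted, 0 without any 1 of receptive day 7 pools 1 and 2, non-receptive day 7 pool 1, the 3 receptive day 3 pools and non-receptive day 3 pool 1. The 0 calls in non-receptive endometrium became 1 under quantile normalization, 1 with values under 4 set to 4 and 1 with trended, robust eBayes, and 0 to 1 with each pool omitted (1 when pool 2 of day 7 or pool 3 of day 3 was left out of the non-receptive groups). The day difference of the MMP14 probe set ending in A1_at changed sign with values under 4 set to 4 (0.0217) and with array weights (0.166), and ranged from -0.801 to 0.232 with each pool omitted, above 0 when non-receptive day 7 pool 3 was left out. That of MMP20 changed sign with array weights (0.342) and the actin gap (0.17), and ranged from -0.667 to 0.0525 with each pool omitted, above 0 when receptive day 3 pool 1 was left out. The cause of these changes was not tested. Of all probe sets called in the averaged day comparison 33.5% were higher on day 7, 44.1% after quantile normalization and 50.6% after median centring, with 4 of 5, 4 of 5 and 5 of 6 member calls higher.

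The pool numbers did not clearly pair the samples: deviations of same-numbered pools correlated between -0.11 and 0.14, with 3 of 12 above 0.1. Between the days of receptive endometrium the correlations were 0.136, 0.0519 and 0.122 for pools 1, 2 and 3. With 3 pools per group, these correlations cannot exclude shared animals. With the pool number as a block 4 members passed in the averaged day comparison, 0 in receptive and 0 in non-receptive endometrium. Low signals limit MMP20, MMP14, MMP9, the second MMP13 probe set and the MMP3 probe set ending in S1_a_at most. The mean signal of MMP9 lay at the 10.3 percentile of probe set means.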
